A study of Mus musculus with 52 samples.

Results

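The piRNA pathway genes described here are 10 genes selected by name, Piwil1, Piwil2, Tdrd1, Tdrd6, Tdrd9, Mael, Mov10l1, Ddx4, Asz1 and Henmt1, of 34865 genes listed for mouse testes. All 10 were listed, and all 10 had a mean of at least 1 TPM (a gene's length-corrected portion of the transcripts in a sample) over the 3 testes groups, as did 21766 genes in all. Wild-type mice were compared by RNA-seq with Tug1-/- mice, which lack the long noncoding RNA gene Tug1. The series holds 52 samples, and the means read here rest on 11 testes samples and on 35 samples of eye, heart, liver, spleen, prostate and embryonic fibroblasts (MEFs, cells grown from embryos).

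The testes groups were wild type (4 samples), Tug1-/- (4 samples) and rescue (3 samples), all from male mice whose ages the labels do not give. In Tug1-/- mice a lacZ cassette stood in place of the Tug1 gene body, with the promoter and the first exon left in place. Rescue mice were Tug1-/- as well and carried, in the strain named Tug1_tm1.1Vlcg; tg(Tug1); CAGs-rtTA3, the transgene tg(Tug1), a Tug1 isoform without its 5′ region behind a tet-responsive element, inserted at random. It was switched on by CAGs-rtTA3, a doxycycline-dependent activator under a broadly active promoter, with doxycycline given in the diet from the time of mating. Wild-type testes were on a C57BL/6J/129S6 background and were labelled as free of the Neo cassette, whereas Tug1-/- and rescue testes were labelled as carrying Neo and LacZ. The study's methods describe instead a colony from which the neomycin gene had been bred out, and which of these holds for the testes was not settled here. The effects of lacZ, of any Neo left and of the Tug1 deletion cannot be told apart. The eye, heart, liver, spleen and MEF groups had 3 samples per genotype, and prostate had 3 wild-type and 2 Tug1-/- samples, all on an N3-C57BL/6J background without Neo.

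PIWI-interacting RNAs (piRNAs) are small RNAs of the germ line that guide PIWI proteins to transposon transcripts and other RNAs. Long precursors are unwound and cut at the mitochondrial surface, loaded onto PIWI proteins, trimmed and methylated at the 3′ end, and Tudor-domain proteins hold the complexes together in germ granules. In mice the loss of many of these genes stops spermatogenesis and leaves males sterile.

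The tables used here give each group only as the authors' mean, with no value for single samples. No spread between mice, interval or test could be computed from these means, and the authors' own test columns in the same tables were not used. Whether any difference below exceeds the spread between replicates was therefore not tested here. Sequencing depth per sample is unknown. Library codes in the labels fall into 2 stretches of consecutive numbers, whose meaning the labels do not give, with wild type and Tug1-/- each split 3 and 1 and rescue split 1 and 2, and the means cannot be divided by them. In whole testes, fewer cells of a type and less RNA per cell cannot be told apart.

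The deletion was visible in the targeted gene. Mean Tug1 RNA was 40.1 TPM in wild-type, 0.885 TPM in Tug1-/- and 1.60 TPM in rescue testes, so the transgene group stood far closer to Tug1-/- than to wild type. In the other tissues Tug1 lay between 10.1 and 57.5 TPM in wild type and at most at 0.237 TPM in Tug1-/-.

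The 10 genes spanned a 55.8-fold range in wild-type testes, with a median of 115 TPM. Mael, whose protein works in germ granules and in nuclear transposon silencing, was the most abundant and ranked 39 among the 21766 genes. Ddx4 (the germ-cell RNA helicase VASA) ranked 195, Tdrd6 ranked 328 and Piwil1 ranked 544. Asz1 and Henmt1 were the least abundant, at ranks 5344 and 5489. The order of the first 4 genes was Mael, Ddx4, Tdrd6 and Piwil1 in all 3 testes groups. Tdrd1 and Piwil2, both at 115 TPM in wild type, exchanged places in Tug1-/- testes, as did Asz1 and Henmt1, and without a measure of spread these neighbours cannot be ordered.

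**Figure D1:**
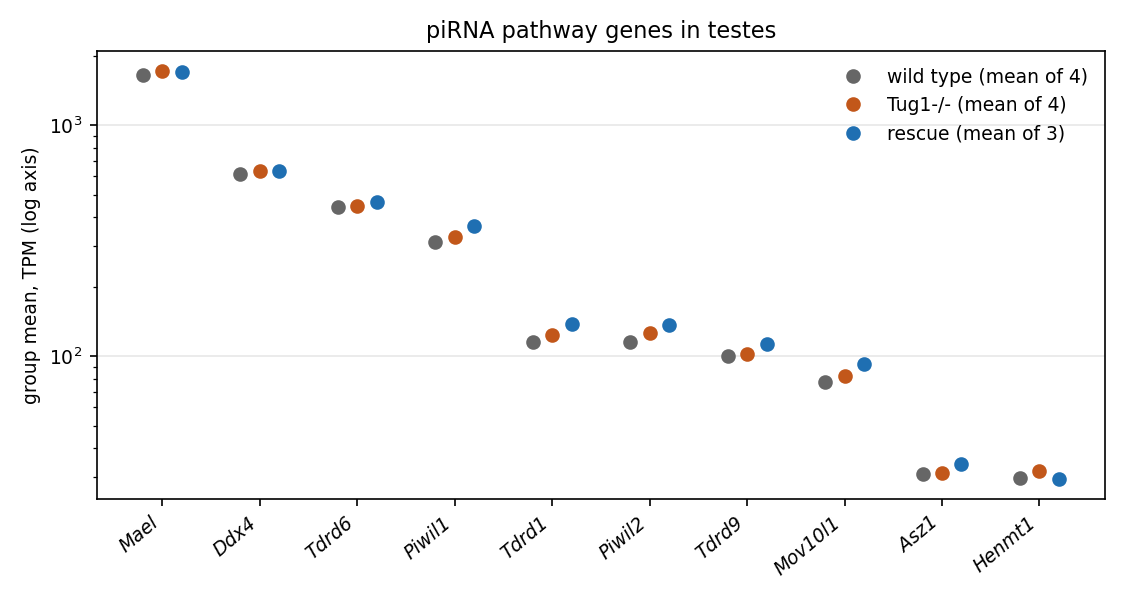
Mean TPM on a log axis of the 10 piRNA pathway genes in wild-type (mean of 4), Tug1-/- (mean of 4) and rescue (mean of 3) testes, ordered by the wild-type mean. Each point is 1 group mean with no error bar, since no values of single samples were used. The 3 points of a gene lie close together beside the distance from Henmt1 (29.5 TPM in wild type) to Mael (1646 TPM).

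Many piRNA pathway genes are known to be switched on in pachytene spermatocytes by the transcription factor A-MYB (Mybl1), so the sequence before their starts is shown with the core of its site marked. RefSeq promoter windows (GRCm38.p6, 250 bases before the start) were found for 8 of the 10 genes. The 5 below, 5′ to 3′ on the gene's strand, are limited to bases in no annotated exon. Capitals mark AACTG or AACGG on either strand (CAGTT and CCGTT when on the other strand) and the palindrome CACGTG (an E-box), which was added after these sequences had been read. They belong to the most abundant gene and to the 4 genes that were more than 1.1-fold higher in rescue than in Tug1-/- testes.
Mael, chr1:166238748-166238994, minus strand: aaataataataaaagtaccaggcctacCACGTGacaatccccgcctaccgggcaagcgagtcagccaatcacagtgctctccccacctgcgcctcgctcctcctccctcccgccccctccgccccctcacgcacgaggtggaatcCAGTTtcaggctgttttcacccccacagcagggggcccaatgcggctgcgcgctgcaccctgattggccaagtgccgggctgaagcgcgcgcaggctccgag
Piwil1, chr5:128735996-128736173, plus strand: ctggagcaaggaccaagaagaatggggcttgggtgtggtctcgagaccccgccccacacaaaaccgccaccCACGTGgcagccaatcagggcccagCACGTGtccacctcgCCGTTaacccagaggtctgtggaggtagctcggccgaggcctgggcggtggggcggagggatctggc
Tdrd9, chr12:111971309-111971558, plus strand: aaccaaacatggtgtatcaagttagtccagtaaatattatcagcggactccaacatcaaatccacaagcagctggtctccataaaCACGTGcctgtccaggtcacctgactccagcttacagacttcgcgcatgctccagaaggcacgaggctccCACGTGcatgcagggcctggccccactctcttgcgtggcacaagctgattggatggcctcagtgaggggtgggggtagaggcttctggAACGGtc
Mov10l1, chr15:88982744-88982908, plus strand: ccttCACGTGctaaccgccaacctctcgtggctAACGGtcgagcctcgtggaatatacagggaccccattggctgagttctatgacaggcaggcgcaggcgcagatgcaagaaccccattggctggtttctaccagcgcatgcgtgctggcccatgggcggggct
Tdrd1, chr19:56825959-56826208, plus strand: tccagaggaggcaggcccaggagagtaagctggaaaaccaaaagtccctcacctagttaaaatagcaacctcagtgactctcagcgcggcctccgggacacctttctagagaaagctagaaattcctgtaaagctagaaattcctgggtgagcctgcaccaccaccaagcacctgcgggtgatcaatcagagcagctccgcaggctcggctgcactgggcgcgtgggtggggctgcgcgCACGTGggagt
The MYB core in either spelling was present in 7 of the 10 windows of these 8 genes (6 genes), against 48.6% of 32851 mouse promoter windows (39.1% with the first spelling and 14.5% with the second). Tdrd1 has 3 windows, which overlap in part, and the one printed holds no MYB core. The E-box was present in 7 of the 10 windows (6 genes) as well, against 6.02% of all windows. The overlapping Tdrd1 windows hold the same E-box, so that site is counted more than once. Both motif counts take whole windows, including bases past the first annotated exon base, where both Ddx4 motifs lie. These matches describe letters only, and the E-box was chosen with these sequences in view. In Piwil1 the E-box lay at bases -179 to -174 and again at -154 to -149 from the RefSeq start, with the second spelling of the MYB core on the other strand at -139 to -135. In Tdrd9 the same spelling lay at bases -7 to -3. Neither motif was found in the windows of Asz1 and Henmt1. The Henmt1 window begins inside an annotated exon, and the bases before the earlier annotated Henmt1 starts were not searched.

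The first comparison asked whether loss of Tug1 was accompanied by a different level of piRNA pathway RNA. All 10 means were higher in Tug1-/- than in wild-type testes, by at most 9.69%, yet relative to the median of the spermatocyte markers only 3 of the 10 were higher and relative to the median of all genes 7 were. Of all genes, 62.3% were higher in Tug1-/-, as were 7202 of the 10476 with a mean of at least 10 TPM. No gene of the 10 was past the fold limit (a mean more than 25% higher or more than 20% lower), against 12.9% of all genes and 5.17% of those with a mean of at least 10 TPM, where all 10 members lie. None was more than 1.1-fold higher, against 21.6% of all genes and 14.4% of those of at least 10 TPM. The median log2 ratio of the 10 was 0.07 (range 0.01 to 0.13), beside 0.03 over all genes, and -0.023 relative to the spermatocyte markers. Log2 ratios are of means in TPM with 0.1 TPM added to both.

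Rescue was then set against Tug1-/-, to see whether these RNAs lay closer to wild type in rescue. Rescue mice also carried CAGs-rtTA3 and were given doxycycline. Effects of the transgene, the activator and the drug therefore cannot be told apart in either rescue comparison. For 8 of the 10 genes the rescue mean lay above the Tug1-/- mean and that above wild type. Relative to the median of all genes or of the spermatocyte markers, 7 of 10 were higher in rescue than in Tug1-/-, but relative to the spermatocyte markers 7 of the 10 were not higher in Tug1-/- than in wild type, so the order of the 3 groups depends on the scaling. Over all genes, 52.4% were higher in rescue than in Tug1-/- testes, as were 6107 of the 10476 of at least 10 TPM. The median log2 ratio of the 10 was 0.12 (range -0.10 to 0.18), beside 0.01 over all genes. None was past the fold limit, against 10.7% of all genes and 2.81% of those of at least 10 TPM. Piwil1, Tdrd1, Tdrd9 and Mov10l1 were more than 1.1-fold higher, 4 of 10 against 13.5% of all genes and 7.05% of those of at least 10 TPM. Relative to the spermatocyte markers 1 of 10, Mov10l1, was.

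Rescue was last set against wild type. For 9 of the 10 genes the rescue mean was higher (8 of 10 after centring on all genes, 6 of 10 relative to the spermatocyte markers), as it was for 60.4% of all genes. Among genes of at least 10 TPM it was higher for 7144 of 10476. The median log2 ratio was 0.16 (range -0.00 to 0.26), beside 0.04 over all genes, and was 0.035 relative to the spermatocyte markers. None was past the fold limit, against 16.1% of all genes and 6.67% of those of at least 10 TPM. More than 1.1-fold higher were 6 of 10, against 25.8% of all genes and 22.2% of those of at least 10 TPM. These 6 were Piwil1, Piwil2, Tdrd1, Tdrd9, Mov10l1 and Asz1, and relative to the spermatocyte markers 1 of 10, Tdrd1, remained past that fold. The order wild type, Tug1-/-, rescue from lowest to highest held for 8 of the 10, and for 30.7% of all genes, but for 4 of the 10 after centring on all genes and for 2 relative to the spermatocyte markers. The 3 comparisons share their libraries and are not independent of each other.

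**Figure D2:**
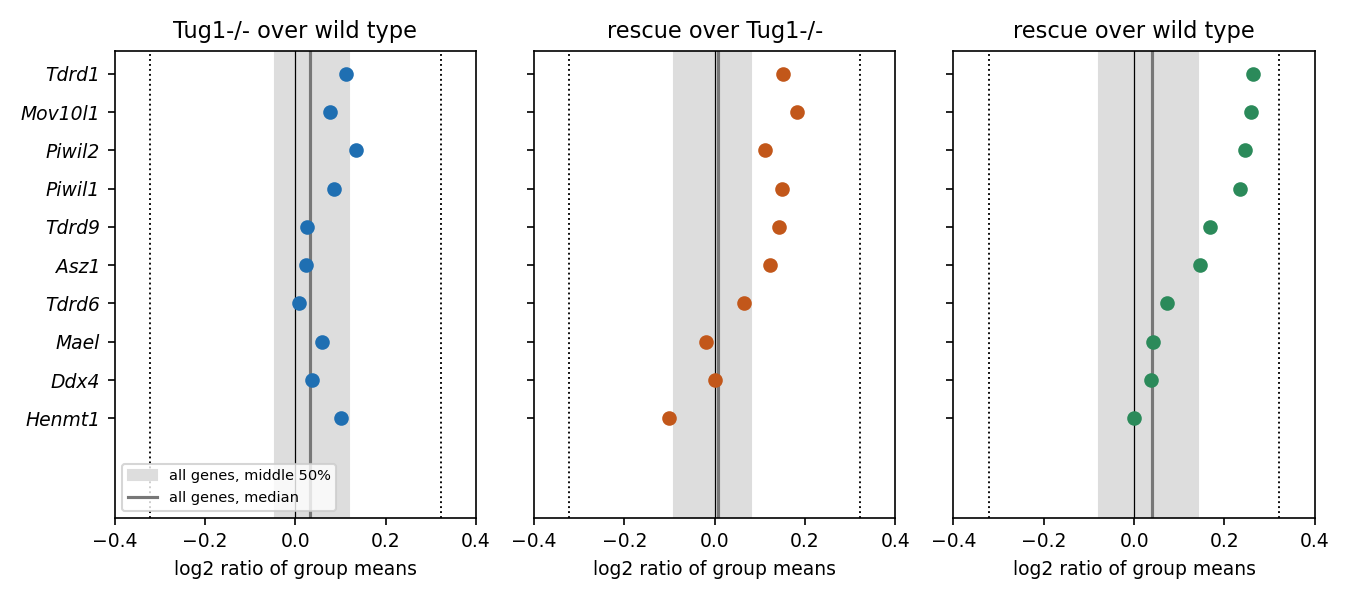
Log2 ratio of group means (x axis) for each of the 10 genes (y axis) in Tug1-/- over wild type, rescue over Tug1-/- and rescue over wild type. The grey band is the interquartile range of the 21766 genes, the grey line their median, and the dotted lines mark the fold limit (25% higher or 20% lower), which no point passes. In rescue over wild type Tdrd1, Mov10l1, Piwil2, Piwil1, Tdrd9 and Asz1 lie to the right of the band, from 0.15 to 0.26.

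The PIWI proteins are the partners that bind piRNAs and cut their targets. Piwil1 (MIWI), the PIWI protein of meiotic and later germ cells, had means of 311 TPM in wild type, 330 in Tug1-/- and 366 in rescue. Piwil2 (MILI), which acts from fetal germ cells onward, had 115, 126 and 136 TPM. Both were lowest in wild type and highest in rescue, Piwil1 by 17.7% and Piwil2 by 18.5% over wild type. The gene lies at chr5:128702524-128755474 for Piwil1 and at chr14:70372477-70429383 for Piwil2 (mm10).

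The RNA helicases unwind or remodel RNA for the pathway. Mov10l1, which handles piRNA precursors, had 77.5 TPM in wild type, 81.8 in Tug1-/- and 92.8 in rescue testes. At 13.4%, its step from Tug1-/- to rescue was larger than that of any other of the 10 genes. Ddx4 had 617, 633 and 633 TPM, with Tug1-/- and rescue differing by 0.03%. Tdrd9, which joins a helicase with a Tudor domain, had 100.1, 102 and 112 TPM, so that most of its difference lay between Tug1-/- and rescue.

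Among the Tudor-domain scaffolds, Tdrd1 had 115 TPM in wild type, 124 in Tug1-/- and 138 in rescue, which is 20.1% above wild type. Tdrd6, a scaffold of the chromatoid body of spermatids, had 443, 445 and 466 TPM. Its Tug1-/- mean was 0.502% above wild type, the smallest step of the 10, and its log2 ratio was below that of the median gene. Tdrd1 lies at chr19:56826209-56870012 and Tdrd6 at chr17:43615335-43630299.

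The remaining 3 genes stood apart from one another. Mael had 1646 TPM in wild type, 1716 in Tug1-/- and 1694 in rescue, with rescue between the other groups. Asz1, which tethers the pathway to mitochondria, had 30.7, 31.3 and 34.0 TPM. Henmt1, the methyltransferase that modifies piRNA 3′ ends, had 29.5, 31.7 and 29.5 TPM, so that rescue matched wild type to within 0.02% and Tug1-/- was 7.34% higher. Of the 10 genes, Henmt1 alone shares exon bases with another gene: 392 of its 2675 exon bases (14.7%) lie opposite Gm9857. The library kit did not mark strand, and reads from that stretch cannot be assigned to one gene.

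Other genes of the pathway were 22, of which 21 reached 1 TPM. The 3 with the highest wild-type means were Gtsf1 (503 TPM), a partner of PIWI proteins, the transcription factor Tcfl5 (277 TPM), and Tdrd7 (247 TPM), a scaffold of germ granules. In Tug1-/- over wild type 20 of the 22 were higher (62.3% of all genes), with a median log2 ratio of 0.07, and 1, Piwil4, was past the fold limit (12.9% of all genes). Piwil4 (MIWI2), the PIWI protein of fetal germ cells, had 0.814 TPM in wild type, 0.491 in Tug1-/- and 0.404 in rescue, below the limit of 1 TPM set for the background. In rescue over Tug1-/- 15 of the 22 were higher (52.4% of all genes), with a median of 0.04. None was past the fold limit (10.7% of all genes), and 3 of 22 were more than 1.1-fold higher, a share near the 13.5% of all genes. In rescue over wild type 20 of 22 were higher (60.4% of all genes), with a median of 0.10, and 3, Fkbp6, Dnmt3c and Piwil4, were past the fold limit, a share near the 16.1% of all genes. More than 1.1-fold higher were 9 of the 22, against 25.8% of all genes. Fkbp6 (a chaperone partner) had 56.0, 59.3 and 71.9 TPM. Dnmt3c, the methyltransferase of male germ cells that acts on young transposons, had 2.52, 3.06 and 3.67 TPM. Mybl1 itself had 47.7, 49.4 and 50.9 TPM. The order wild type, Tug1-/-, rescue was found for 15 of the 22, against 30.7% of all genes.

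Markers of the cell types of the testes were read beside the pathway. Summed spermatocyte markers (8 genes) were 1079 TPM in wild type, 1139 in Tug1-/- and 1174 in rescue, all 8 were higher in Tug1-/-, and their median log2 ratio to wild type, 0.09, was above the 0.07 of the piRNA pathway genes. Round spermatid markers (6 genes) had a median of 0.03, and elongating spermatid markers (7 genes) had a median of -0.10, with 6 of 7 lower. Spermatogonial markers (8 genes) had a median of 0.09 in Tug1-/- and 0.26 in rescue over wild type. Sertoli (8 genes), Leydig (8 genes) and peritubular markers (5 genes) were higher by medians of 0.40, 0.55 and 0.47 in Tug1-/-. Macrophage markers (7 genes) had a median of 0.34 and endothelial markers (5 genes) one of 0.11. Summed TPM in wild-type, Tug1-/- and rescue testes was 56242, 53277 and 51959 for elongating spermatids, 963, 996 and 961 for round spermatids, and 86.3, 87.1 and 96.2 for spermatogonia. It was 1316, 1462 and 1534 for Sertoli cells, 671, 962 and 764 for Leydig cells, 109, 152 and 125 for peritubular cells, 83.1, 107 and 119 for macrophages, and 14.7, 16.0 and 15.7 for endothelial cells. Leydig, peritubular, round spermatid and endothelial sums were highest in Tug1-/-. Spermatocyte, spermatogonial, Sertoli and macrophage sums were highest in rescue, and the elongating spermatid sum in wild type. In TPM 8 of the 10 piRNA pathway genes were highest in rescue, all in the order wild type, Tug1-/-, rescue. That order held for 30.7% of all genes, and a further 12.6% had the order Tug1-/-, wild type, rescue. For the 10 genes the order depends on the scaling, as given above. No marker was at 0 in any group. The part of cell composition in the levels of the piRNA pathway genes was not tested.

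**Figure D3:**
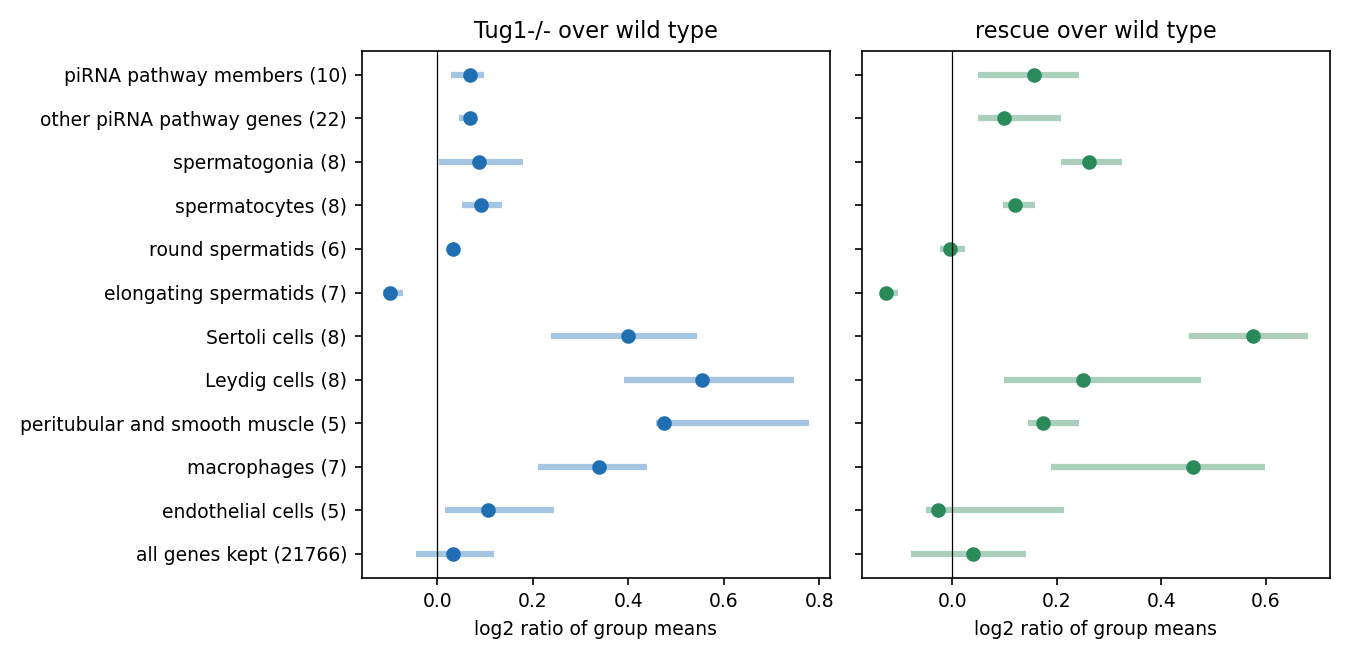
Median log2 ratio of group means (points) and interquartile range over the genes of a list (bars), for Tug1-/- over wild type and rescue over wild type, with the number of genes in brackets. The piRNA pathway lists sit at 0.07 in the left panel, near the spermatocytes at 0.09 and below the Sertoli, Leydig, peritubular and macrophage lists.

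Outside testes most of the 10 genes were near or under detection. Of 60 gene and tissue pairs, 25 were not listed and 7 reached 1 TPM in wild type. The clear exception was Mov10l1 in heart, with 27.8 TPM in wild type and 28.9 in Tug1-/-, or 35.8% of its wild-type testes level. A shorter annotated protein-coding form starts at chr15:89023613 and holds 1260 bases, against 4133 for the longest. The table has 1 value per gene, so the form behind the heart value was not tested. Eye came second, with 7.66 TPM of Tdrd9 in wild type and 6.59 in Tug1-/-, and 5.07 and 4.22 TPM of Piwil2. Ddx4 was at 1.54 TPM and Henmt1 at 1.20 TPM in wild-type eye, with Tdrd6 between them. Piwil2 in spleen was at 1.11 TPM in wild type and 0.774 in Tug1-/-.

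**Figure D4:**
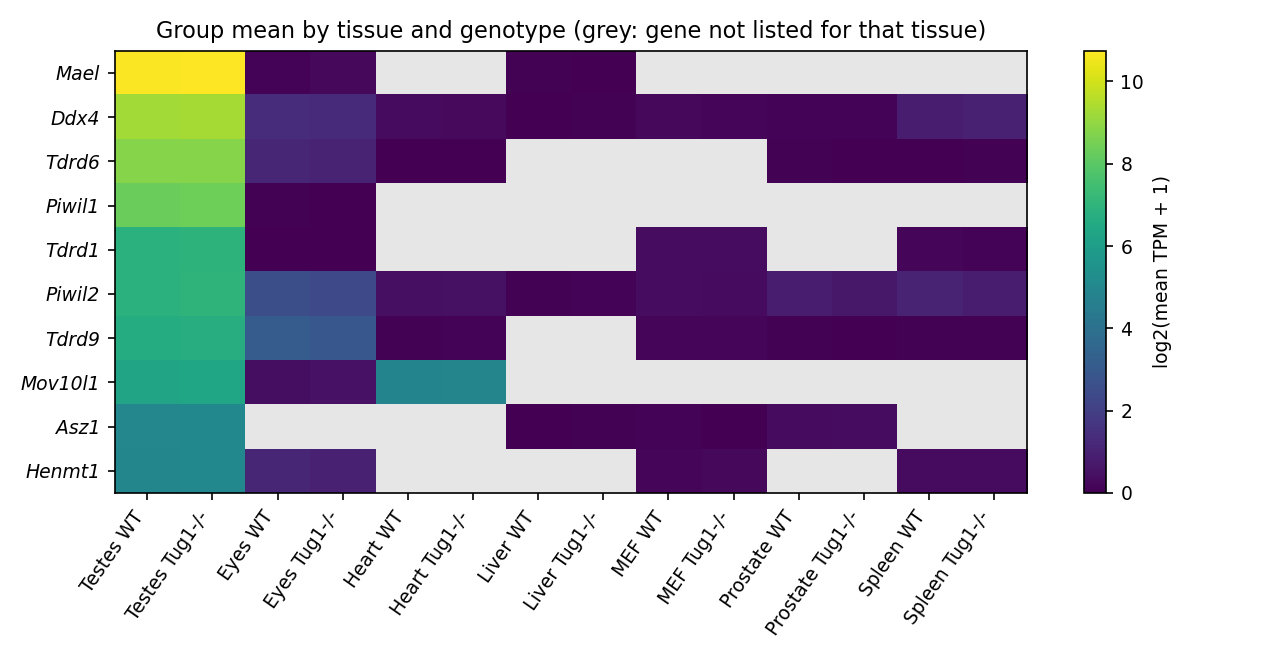
Group means as log2(TPM + 1) by colour for the 10 genes (rows) in wild type and Tug1-/- of each tissue (columns), where grey marks a gene not listed for a tissue. Each of the 10 rows is brightest in its testes columns, where Asz1 and Henmt1 (30.7 and 29.5 TPM in wild type) lie near the middle of the scale. Mov10l1 in heart (27.8 TPM in wild type and 28.9 in Tug1-/-) is brightest elsewhere, close in colour to these 2 genes in testes.

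Over the 15 groups the genes whose log2(TPM + 1) profile lay nearest to the median profile of the 10 were Gm1661 (Euclidean distance 0.26), Adam1b (0.34), 1700104B16Rik (0.36), 1700007G11Rik (0.38) and Ttll9 (0.39). Of the 10 themselves, Tdrd1 was nearest (1.11) and Mov10l1 farthest (6.96). A gene not listed for a tissue was counted as having no expression there, so the distances rest in part on values that were not listed.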

How the data were processed

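RNA-seq libraries were prepared from polyA-selected RNA with a TruSeq RNA v2 kit, which does not mark strand. Per the labels and methods, the authors aligned reads to GRCm38 (mm10) with STAR, counted uniquely mapped reads with featureCounts on GENCODE vM16 genes, and dropped a gene if none of its replicates reached 3 reads. Whether counting used strand is not given in the sources used here. The submitters' processing notes also name CASAVA 1.8.2 and DESeq2. The deposited tables hold TPM as the authors' mean of each group, and beside it the authors' own fold changes, statistics and p-values, which were not used. No columns of single samples were read (0), so depth is unknown and the planned limma test was not run.

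The labels name the 2 tables the other way round from their contents, and the table with a rescue column was taken as that of testes. In the table of the other tissues, where each tissue's values are stacked in 1 column, the same deposited means form a mixed unit (other) and were read per tissue. Brain rows and the 6 F1 hybrid testes samples were not analysed here.

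Log2 ratios of mean TPM used a pseudocount of 0.1 TPM. All genes means the 21766 with a mean of at least 1 TPM. Genes were named by rule: the 10 members, those of the 22 other pathway genes past the fold limit (25% higher or 20% lower) or with the 3 highest levels, the 5 nearest profiles, and Tug1. Mybl1 and the spermatogonial genes of the closing section fall outside it and were chosen after their values were seen. The members and lists were chosen with earlier results of these data known. The ratio script was tested on simulated data. Python 3.11.15, pandas 2.3.3 and numpy 2.4.6 were used. Promoters came from RefSeq, and gene models from GENCODE M21, whose coordinates for all 10 members matched the table's.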

Additional observations from a re-analysis of the deposited data

How the results depend on the processing

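No paired analysis was possible because the tables used here hold group means, and for the same reason leaving out each replicate was not run. Under pseudocounts of 1 and 0.01 TPM and after rescaling to nuclear protein-coding genes, the median log2 ratios of the 10 genes kept their sign and stayed within the spread over genes. Of the 30 single-gene ratios 1 changed sign after the rescaling, 5 when centred on all genes and 11 relative to the spermatocyte markers. Centred on all genes the medians were 0.04, 0.11 and 0.12. Relative to the spermatocyte markers, Tug1-/- over wild type reversed to -0.023, and the number of genes higher, counted after seeing the data, was 3 in place of 10; rescue over Tug1-/- was 0.083 and rescue over wild type 0.035, so that the order of these 2 medians changed. On that scale 1 gene in each of these comparisons was more than 1.1-fold higher (in place of 4 and 6), and the order wild type, Tug1-/-, rescue held for 2 genes (4 when centred on all genes, in place of 8), counts also added after seeing the data. With a limit of 1.1-fold, 0, 4 and 6 genes were past it in Tug1-/- over wild type, rescue over Tug1-/- and rescue over wild type. At 1.5-fold none was. The share of all genes past the fold limit depended on the minimum level: at 0.1 TPM it was 21.8%, 20.9% and 26.1%, at 10 TPM 5.17%, 2.81% and 6.67%, and among protein-coding genes it was 6.61% for rescue over Tug1-/-. The share more than 1.1-fold higher was at 10 TPM 14.4% in Tug1-/- over wild type, and 7.05% in rescue over Tug1-/-. The cause was not tested.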

Other observations

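Among the spermatogonial markers Gfra1, the GDNF receptor of undifferentiated spermatogonia, was past the fold limit (more than 20% lower) in Tug1-/- over wild type, and of the other 7 Zbtb16 alone had a lower mean (3.10 TPM in wild type and 3.08 in Tug1-/-). Gfra1 was at 11.1 TPM in wild type, 3.84 in Tug1-/- and 4.0 in rescue testes. After these values were seen, 12 genes of undifferentiated spermatogonia were read, Piwil4 among them. Counts used log2 ratios with 0.1 TPM added to both means. In Tug1-/- over wild type 4 of the 12 were past the limit lower and none past it higher, with a median log2 ratio of -0.08. Beside this, 1231 of the 21766 genes with a mean of at least 1 TPM were past it lower. Without the added 0.1 TPM, Pax7 (0.0319 TPM in wild type and 0.0596 in Tug1-/-) was 87.0% higher, past the limit. Gfra1 and Piwil4, which prompted the list, are among the 4, and Eomes and Piwil4 lay under 1 TPM. The 4 were Gfra1, Etv5 (23.7, 15.3 and 16.0 TPM), Eomes (0.929, 0.138 and 0.257 TPM) and Piwil4 (0.814, 0.491 and 0.404 TPM). Bcl6b, Lhx1 and Nanos3 had wild-type means of 3.34, 2.18 and 2.23 TPM and Tug1-/- means of 3.62, 2.00 and 2.40 TPM. The list was chosen with Gfra1 and Piwil4 in view, the other genes lie mostly under 1 TPM (5 of 12 reached it in wild type), and no spread between mice is known.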
